A study of Mus musculus with 4 samples.

Results

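The genes described here are the 7 caveolae and transcytosis genes Cav1, Cav2, Cavin1, Cavin2, Cavin3, Mfsd2a and Plvap, taken by symbol from the 32285 gene rows of the count matrices. Each of the 7 symbols matched 1 row. Caveolae are flask-shaped pits of the plasma membrane built from caveolin proteins and a coat of cavin proteins, and they are one route by which vesicles carry cargo across a vessel wall. Endothelial cells of the blood-brain barrier are known for a low rate of such transcytosis, which the lipid transporter Mfsd2a limits in brain capillaries. Plvap forms the diaphragms of fenestrae and of some caveolae, and in the adult brain it marks leaky vessels such as those of the choroid plexus rather than barrier vessels.

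The mice were C57BL6 and ate either a diet with PLX5622 at 1200 ppm or a control diet for 1 month. PLX5622 inhibits the receptor CSF1R and removes microglia, and the study asked what their loss does to the brain vasculature. All groups share the same preparation, in which meninges, cerebellum and olfactory bulbs were taken away and cells carrying CD31, an endothelial surface protein, were sorted. Each diet has 2 libraries made with the 10x Genomics 3' v3.1 kit from the brains of 3 mice. The labels do not tie libraries to single animals, so a p-value here measures the spread between libraries, which may be technical.

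A barcode was kept as a cell where it had 1000 or more unique molecular identifiers (UMIs, each a counted RNA molecule), 500 or more genes, and mitochondrial UMIs of at most 10%. They numbered 3989 and 3670 in the PLX5622 libraries and 1696 and 5509 in the control libraries, with median UMIs per cell between 3834 and 5921.5, and any pair of libraries shared at most 6 cell barcodes. Cells were named from marker genes that include none of the 7 members, and the members were also left out of the genes used to cluster. The endothelial-like class held 13522 cells, of which 2193 were arterial-like, 8739 capillary-like and 1557 venous-like, and its summed endothelial marker level lay between 24564 and 25687 UMIs of a gene per 1000000 UMIs (CPM) in every library. The mural cells kept by the sort were 201 smooth muscle-like and 94 pericyte-like cells. Their own summed endothelial markers lay between 349 and 482 CPM and between 804 and 1538 CPM, and their part in the mural levels below was not tested.

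Promoter sequences are shown for the members on which the patterns below turn: Cav2 and Cav1, which are neighbours on 1 chromosome but differ in their order across vessel zones, Cavin1 and Cavin2, which differ in opposite directions between smooth muscle-like and endothelial cells, and Mfsd2a, whose zone order runs against that of Cavin1. Cav2 (chr6:17281185-17289115) and Cav1 (chr6:17306335-17341452) are both protein-coding genes on the plus strand of GRCm38, with 17219 bases between the end of Cav2 and the start of Cav1. Of the 7 members, 5 have an entry in the RefSeq promoter table, which uses GRCm38.p6. Each line gives the 250 bases before the first listed start, 5' to 3' on the gene's strand. Capitals mark GGGCGG (the GC box) and CCAAT, searched on both strands, so that CCGCCC and ATTGG are the same motifs on the other strand.
Cav2, chr6:17280935-17281184, plus strand: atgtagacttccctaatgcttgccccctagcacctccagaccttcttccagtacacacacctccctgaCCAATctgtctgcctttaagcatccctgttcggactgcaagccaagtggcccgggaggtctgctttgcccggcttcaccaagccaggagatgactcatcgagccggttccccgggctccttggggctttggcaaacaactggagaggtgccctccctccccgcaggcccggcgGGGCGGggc
Cav1, chr6:17306085-17306334, plus strand: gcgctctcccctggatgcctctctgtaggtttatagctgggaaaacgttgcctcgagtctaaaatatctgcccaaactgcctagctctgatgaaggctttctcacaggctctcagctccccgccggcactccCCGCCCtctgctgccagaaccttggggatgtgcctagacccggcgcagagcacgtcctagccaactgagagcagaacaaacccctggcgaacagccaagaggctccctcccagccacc
Cavin1, chr11:100970618-100970867, minus strand: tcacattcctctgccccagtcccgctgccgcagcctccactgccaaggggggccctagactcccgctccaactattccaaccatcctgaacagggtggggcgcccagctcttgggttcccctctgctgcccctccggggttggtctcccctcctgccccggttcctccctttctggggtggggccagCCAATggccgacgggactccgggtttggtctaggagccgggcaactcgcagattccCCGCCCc
Cavin2, chr1:51288876-51289125, plus strand: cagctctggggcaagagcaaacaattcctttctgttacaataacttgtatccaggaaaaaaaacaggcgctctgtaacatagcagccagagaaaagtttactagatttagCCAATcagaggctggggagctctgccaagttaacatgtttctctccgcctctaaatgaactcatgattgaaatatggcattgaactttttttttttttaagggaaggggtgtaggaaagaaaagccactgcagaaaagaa
Mfsd2a, chr4:122961189-122961438, minus strand: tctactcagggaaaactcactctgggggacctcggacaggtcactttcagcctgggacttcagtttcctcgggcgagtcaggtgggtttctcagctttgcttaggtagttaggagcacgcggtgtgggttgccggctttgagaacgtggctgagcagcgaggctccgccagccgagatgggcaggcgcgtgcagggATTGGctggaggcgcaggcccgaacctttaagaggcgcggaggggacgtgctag
The GC box letters occur in the windows shown for Cav2, Cav1 and Cavin1, and the CCAAT letters in those of Cav2, Cavin1, Cavin2 and Mfsd2a. Cav1 and Cavin1 each have a further listed start that is not shown. The window of the further Cav1 start (chr6:17307390-17307639) holds neither motif, and that of Cavin1 holds both. Over all 32851 promoters of the table, cut to the same length, 32.7% hold GGGCGG and 33.8% hold CCAAT. The Cavin2 window is 40.4% G and C, whereas the windows of the other 4 lie between 59.6% and 67.6%.

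Across vessel zones, the caveolin and cavin genes were all present in every endothelial zone. Most differed little between zones, but Cavin3 was clearly highest in arteries. Mfsd2a differed between zones too and was highest in capillaries. Zones are clusters of the same cells, so these are descriptions over the 4 libraries with no test. Cav1, the main structural protein of caveolae, had 403 and 373 CPM in PLX5622 and 358 and 378 CPM in control arterial-like cells. It had 345 and 293 CPM in PLX5622 and 297 and 300 CPM in control capillary-like cells. The arterial range lay above the capillary range, with a log2 ratio of 0.29 ± 0.06 (SD, n = 4 libraries). Venous-like cells stood between them for Cav1 and overlapped both ranges.

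Cav2, which partners Cav1 in the membrane, had a different order. Its venous-like levels were 269 and 272 CPM in PLX5622 and 276 and 275 CPM in control libraries. All 4 lay above the capillary-like values of 244, 241, 251 and 263 CPM, at a log2 ratio of 0.13 ± 0.05 (SD, n = 4), and the arterial-like and capillary-like ranges of Cav2 overlapped. Over the 12 sums of 3 zones in 4 libraries, Cav1 and Cav2 had a Pearson correlation of log2(CPM + 1) of -0.17. These 12 points share libraries and depth, so this and the correlations that follow describe the sums and carry no p.

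Among the coat proteins, Cavin1, which is needed for the caveolar coat to form, was highest in venous-like cells, with 410 and 497 CPM in PLX5622 and 458 and 438 CPM in control libraries. The capillary-like levels of Cavin1 were 323 and 359 CPM in PLX5622 and 388 and 357 CPM in control libraries. Every venous value exceeded every capillary value, and the log2 ratio was 0.34 ± 0.10 (SD, n = 4), while the arterial-like range of Cavin1 overlapped both. Cavin2, a coat protein that shapes the curved membrane, was highest in arterial-like cells at 657 and 730 CPM in PLX5622 and 773 and 761 CPM in control libraries. The arterial range of Cavin2 lay above its capillary range of 552 to 624 CPM, at a log2 ratio of 0.30 ± 0.05 (SD, n = 4), and its venous range overlapped both.

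Cavin3, a coat protein that binds protein kinase C, had 160 and 151 CPM in PLX5622 and 136 and 161 CPM in control arterial-like cells. It had 74.7 and 85.1 CPM in PLX5622 and 74.2 and 89.9 CPM in control capillary-like cells. The ranges were far apart, with an arterial mean 1.88-fold the capillary mean (log2 ratio 0.91 ± 0.13, SD, n = 4), and the venous-like range of 70.6 to 103 CPM overlapped the capillary one. Within the arteries the level was uneven. In an arterial-like cluster of 135 cells led by Mgp, Clu and Fbln5, Cavin3 reached 289 and 286 CPM in PLX5622 and 238 and 238 CPM in control libraries, 3.24-fold the capillary level. A venous-like cluster of 74 cells led by Ackr1, Lcn2 and Lrg1 also had more Cavin3 than capillaries, at a log2 ratio of 1.01 ± 0.24 (SD, n = 4), although control library 1 held only 5 of its cells.

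Mfsd2a, the transporter of lysophosphatidylcholine with omega-3 fatty acids, had a different profile. Capillary-like cells had 420 and 330 CPM in PLX5622 and 395 and 355 CPM in control libraries. Arterial-like cells had 344 and 281 CPM in PLX5622 and 273 and 250 CPM in control libraries, a range that overlapped the capillary one although each library was lower (log2 ratio -0.39 ± 0.15, SD, n = 4). Venous-like cells had 218 and 178 CPM in PLX5622 and 204 and 233 CPM in control libraries. The venous range of Mfsd2a lay below both other zones, at 0.555-fold the capillary level.

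Within the arterial-like and venous-like zones, the lowest levels of Mfsd2a were in the same 2 clusters that were rich in Cavin3. The Mgp-led arterial cluster had 26.2 and 76.3 CPM in PLX5622 and 39.6 and 67.3 CPM in control libraries, from 3 to 34 UMIs each. The Ackr1-led venous cluster had 16.4 and 35.5 CPM in PLX5622 and 17.1 and 10.1 CPM in control libraries, from 1 to 12 UMIs each. The mean ratios to capillaries were 0.129-fold and 0.0477-fold. In these 2 clusters Cavin1 was 1.71-fold and 1.72-fold the capillary level, with log2 ratios of 0.78 ± 0.05 and 0.78 ± 0.10 (SD, n = 4), so that a high Cavin1 level and a low Mfsd2a level occurred in the same clusters, arterial and venous. Over the 12 zone sums the correlation of Mfsd2a was -0.88 with Cavin1, -0.74 with Cav2 and -0.10 with Cavin3. That of Cavin3 was 0.72 with Cav1 and 0.71 with Cavin2.

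**Figure D1:**
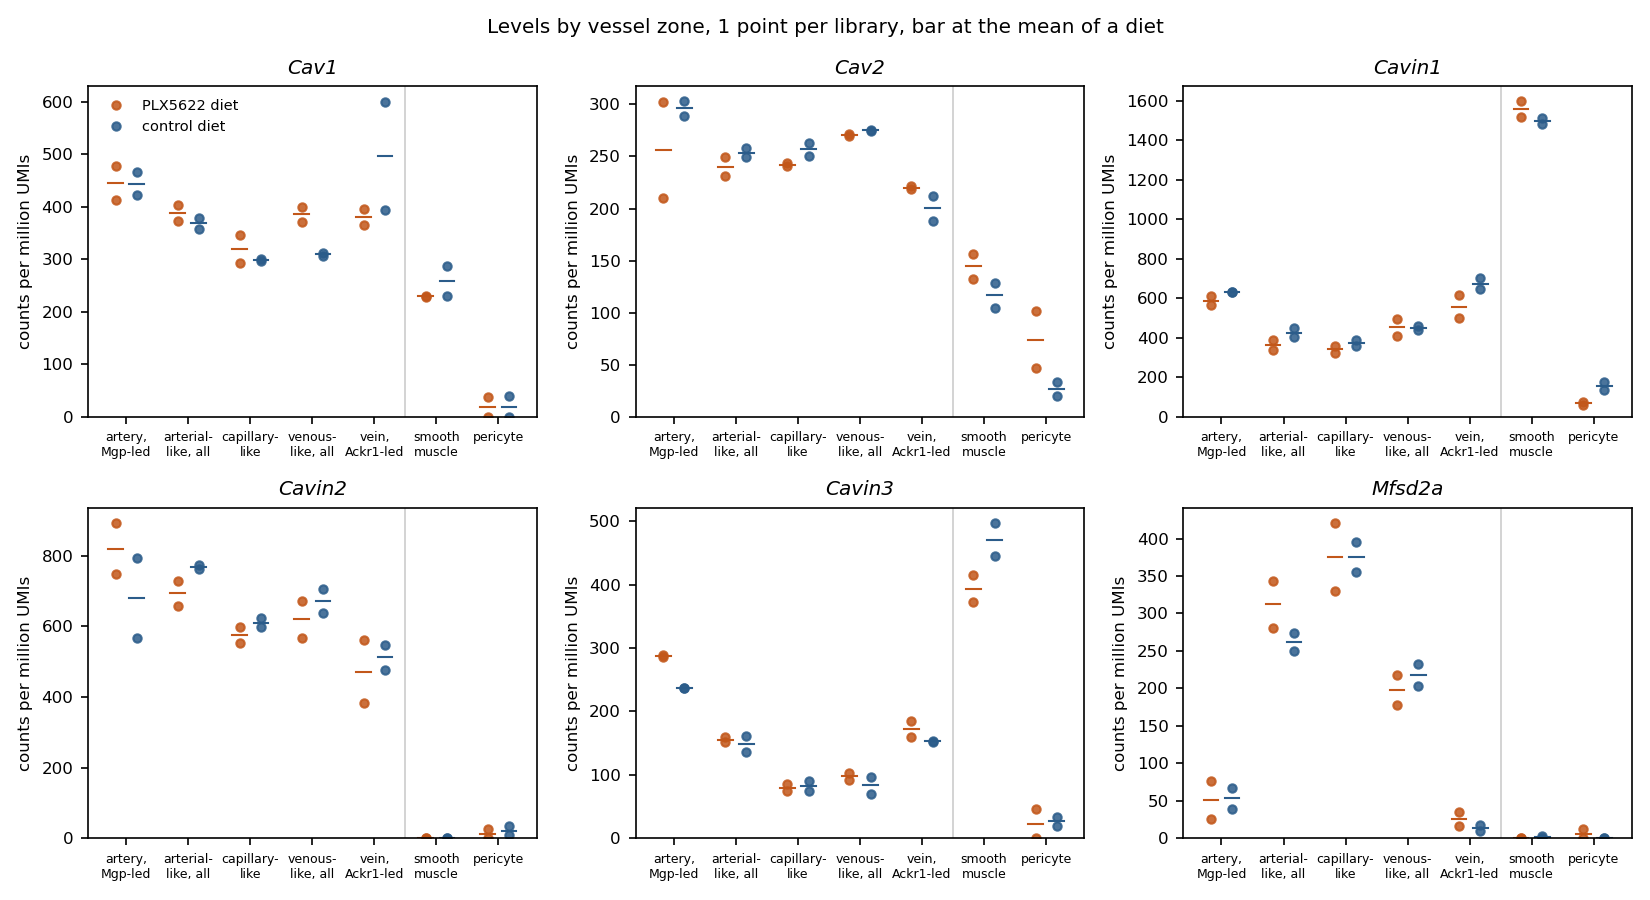
Level of each member except Plvap in CPM (vertical axis, linear from 0, a scale of its own for each gene) by vessel zone or mural class (horizontal axis), with 1 point per library and a bar at the mean of each diet. The Mgp-led and Ackr1-led clusters are also counted within the arterial-like and venous-like classes. Mfsd2a is highest in capillaries and lowest in the Mgp-led and Ackr1-led clusters among the endothelial classes plotted, Cavin3 is highest in smooth muscle, and Cavin2 is at 0 in smooth muscle.

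The members parted into 2 groups in smooth muscle-like cells, where Cavin1 and Cavin3 were higher than in endothelial-like cells and Cavin2 and Mfsd2a were at or near 0. Cavin1 had 1517 and 1599 CPM in PLX5622 and 1483 and 1514 CPM in control smooth muscle-like cells. In endothelial-like cells it had 337 and 391 CPM in PLX5622 and 415 and 383 CPM in control libraries. The 2 classes did not overlap, and the smooth muscle level was 4.02-fold higher (log2 ratio 2.01 ± 0.14, SD, n = 4). Cavin3 had 372 and 415 CPM in PLX5622 and 445 and 497 CPM in control smooth muscle-like cells, 4.46-fold its endothelial level.

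Cavin2 had no UMI in the 201 smooth muscle-like cells. Set against 3 counts over those cells (1.74 CPM), Cavin2 was at least 364-fold lower there than in endothelial-like cells, which held 634 CPM over the 4 libraries. Mfsd2a had 1 UMI in the same cells. Thinned to 1000 UMIs per cell, 74.1% to 78.6% of smooth muscle-like cells in a library had a Cavin1 UMI, and none had Cavin2 or Mfsd2a. Before thinning, the share with Cavin1 was 96.4% to 100% and the share with Mfsd2a was 2.94% in control library 1 and 0 in the other libraries, at median depths of 6520.5 to 9601 UMIs per cell. Thinned capillary-like cells had Cavin1 in 27.0% and 30.8% of PLX5622 and 33.1% and 27.5% of control cells, Cavin2 in 38.8% to 41.9% and Mfsd2a in 24.4% to 32.5%, where the unthinned shares were 65.0% to 79.2%, 76.3% to 86.2% and 68.9% to 72.1% at median depths of 3708 to 5494 UMIs.

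Both caveolins were also present in smooth muscle-like cells. Cav2 had 156 and 133 CPM in PLX5622 and 129 and 104 CPM in control libraries, below its endothelial-like range of 245 to 263 CPM. Cav1 had 230 and 229 CPM in PLX5622 and 287 and 231 CPM in control libraries, a log2 ratio to endothelial-like cells of -0.43 ± 0.23 (SD, n = 4) that came to 0.03 with 40 smooth muscle-like cells left at a limit of 5% mitochondrial UMIs. Claudin-5, an endothelial tight junction gene, had 59 UMIs in smooth muscle-like cells, against 2640 for Cavin1, 752 for Cavin3, 413 for Cav1 and 220 for Cav2. Per 100 claudin-5 UMIs the smooth muscle-like cells thus held 4475 Cavin1 UMIs, where endothelial-like cells held 5.07.

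Pericyte-like cells had low counts of every member. Cavin1 had the most, with 76.2 and 62.1 CPM in PLX5622 and 134 and 176 CPM in control libraries, from 32 UMIs in all. Over the 94 cells Cav2 had 14 UMIs, Cav1 7, Cavin3 6, Cavin2 4 and Mfsd2a 1. Control library 1 held only 9 of these cells, so no diet test was made.

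In endothelial-like cells no change with the PLX5622 diet was detected in the 6 members other than Plvap at this depth. Of the 7 members, 0 passed an adjusted p of 0.05 in edgeR's quasi-likelihood test, where 1.1% of the 12788 genes tested passed. At an unadjusted p under 0.05 the count was 1 of 7, Plvap, beside 10.6% of all genes. DESeq2 called Plvap alone among the 7, where it called 0.845% of genes.

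Cav1 had 360 and 322 CPM in PLX5622 and 310 and 316 CPM in control endothelial-like cells. The PLX5622 values were the higher ones, and the log2 fold change was 0.17 with a 95% interval of -0.06 to 0.40 (adjusted p = 0.641, edgeR). Cav2 had 245 and 247 CPM in PLX5622 and 253 and 263 CPM in control libraries, a log2 fold change of -0.02 (-0.24 to 0.19). Cavin1 had 337 and 391 CPM in PLX5622 and 415 and 383 CPM in control libraries, and Cavin2 had 564 and 633 CPM in PLX5622 and 639 and 666 CPM in control libraries. Their log2 fold changes were both -0.08, with intervals of -0.32 to 0.15 for Cavin1 and -0.34 to 0.18 for Cavin2.

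Cavin3 had 92.5 and 99.4 CPM in PLX5622 and 88.2 and 106 CPM in control libraries, with the PLX5622 values inside the control range. Mfsd2a had 377 and 292 CPM in PLX5622 and 328 and 309 CPM in control libraries, where the control values lay inside the PLX5622 range. The log2 fold changes were 0.01 (-0.22 to 0.24) for Cavin3 and 0.12 (-0.14 to 0.37) for Mfsd2a. Adjusted p-values of Cav2, Cavin1, Cavin2, Cavin3 and Mfsd2a ran from 0.807 to 0.987 in edgeR. These intervals leave room for changes of the size they span and do not show that the diets were alike.

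Within zones, 0 of the 6 members with enough counts passed in arterial-like, capillary-like or venous-like cells, where edgeR called 0.687%, 1.52% and 1.71% of the genes tested. DESeq2 also called 0 members in these zones, where it called 0.153%, 0.7% and 0.374% of genes. The largest difference was that of Cav1 in venous-like cells, with 400 and 371 CPM in PLX5622 and 306 and 313 CPM in control libraries. The log2 fold change was 0.34 ± 0.11 (SE, 95% interval 0.11 to 0.56), with an unadjusted p of 0.0034 and an adjusted p of 0.140 in edgeR. Of all genes tested in venous-like cells, 9.31% had an unadjusted p under 0.05. Over the 10 alternatives the fold change of Cav1 in venous-like cells ran from 0.28 to 0.40 and its adjusted p from 0.0694 to 0.979.

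Mfsd2a in arterial-like cells, at the values given above, was also higher in PLX5622 than in control libraries. Its log2 fold change was 0.28 ± 0.12 (SE) with an unadjusted p of 0.0244 and an adjusted p of 0.533 in edgeR, where 7.34% of all genes tested had an unadjusted p under 0.05. In capillary-like cells the log2 fold changes of the 6 members lay between -0.08 for Cavin1 and 0.14 for Cav1, with adjusted p-values from 0.805 to 0.984 in edgeR. None of the 6 had an unadjusted p under 0.05 there, where 10.3% of genes did.

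**Figure D2:**
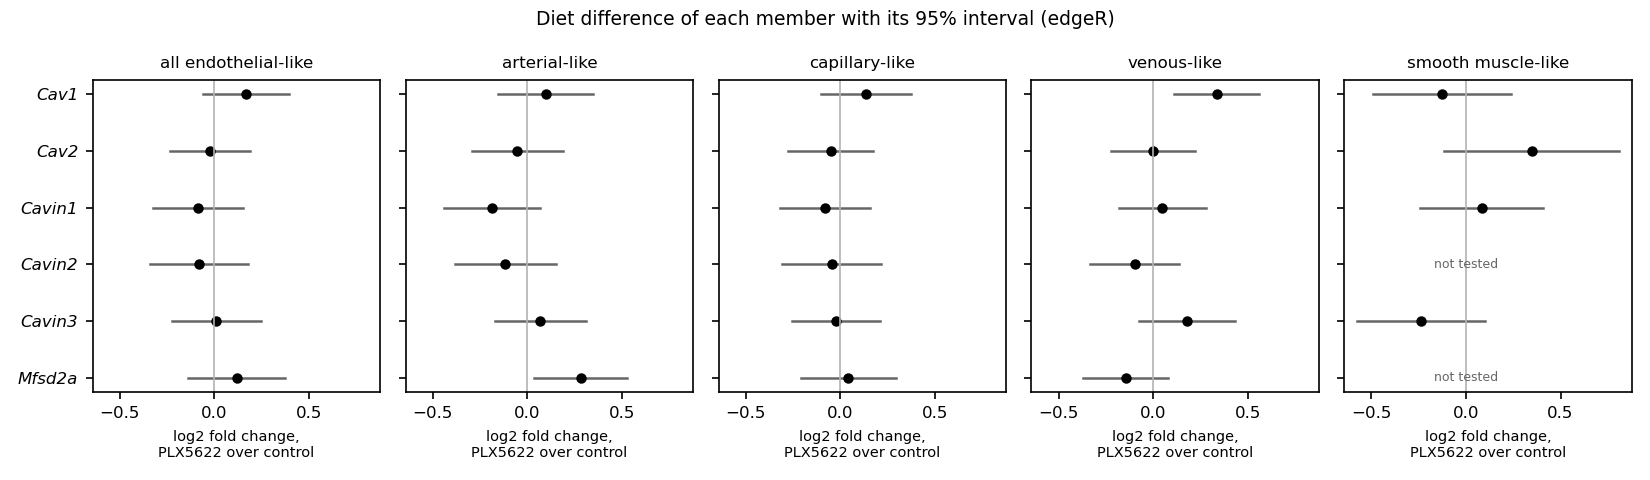
Log2 fold change of each member, PLX5622 diet over control diet (horizontal axis), in all endothelial-like cells, in each zone and in smooth muscle-like cells. Lines are 95% intervals derived from the F statistic of the edgeR fit. The interval lies above 0 for Cav1 in venous-like cells and for Mfsd2a in arterial-like cells, and neither passed the adjustment over all genes.

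Whether the diet difference itself varied between zones was tested with 1 model over the 12 zone sums. Of the 6 members, 0 passed for the arterial or the venous term, where edgeR called 0.209% and 0.235% of genes. DESeq2 likewise called 0 members in either term, where it called 0.015% and 0.01% of genes. Mfsd2a had a diet difference 0.27 ± 0.07 (SE) higher on the log2 scale in arterial-like than in capillary-like cells, with an unadjusted p of 0.0004 and an adjusted p of 0.118, and 0.20 ± 0.08 lower (coefficient -0.20) in venous-like cells, with an adjusted p of 0.659 in edgeR. Without control library 2 the venous term of Mfsd2a turned sign, to 0.0175. Cav1 had a diet difference 0.22 ± 0.07 higher in venous-like than in capillary-like cells, with an unadjusted p of 0.0018 and an adjusted p of 0.304 in edgeR. Unadjusted p-values under 0.05 were found for 1 of the 6 members and 5.6% of genes in the arterial term, and for 3 of the 6 members, Mfsd2a, Cav1 and Cavin1, and 5.8% of genes in the venous term.

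In smooth muscle-like cells 4 members had enough counts, and 0 of 4 passed, where edgeR called 0.053% of genes. None of the 4 had an unadjusted p under 0.05, where 4.56% of genes did, and DESeq2 called 0 members and 0% of genes. The log2 fold changes were 0.35 (-0.12 to 0.81) for Cav2, 0.08 (-0.24 to 0.41) for Cavin1, -0.13 (-0.49 to 0.24) for Cav1 and -0.24 (-0.57 to 0.10) for Cavin3. These rest on 34 to 57 cells per library.

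Plvap was carried by 31 of the 14864 kept cells, with 465 UMIs in all, and every one of these cells came from a control library. In endothelial-like cells the gene had 0 and 0 UMIs in PLX5622 libraries and 41 and 375 UMIs in control libraries, which is 4.72 and 11.7 CPM. Of 3601 and 3304 endothelial-like cells in the PLX5622 libraries, 0 and 0 carried Plvap, which allows shares of up to 0.0833% and 0.0908% by the rule of 3 counts and up to 0.102% and 0.112% by the exact binomial interval. In the control libraries 8 of 1563 and 17 of 5054 did, which is 0.512% (95% exact binomial interval 0.221 to 1.01) and 0.336% (0.196 to 0.538). These intervals and limits cover counting error only.

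The UMIs were concentrated in few cells. A fenestrated-like cluster of 19 cells, 0 and 0 in PLX5622 and 6 and 13 in control libraries, held 410 of the 416 endothelial UMIs, with 2 to 13 and 6 to 110 UMIs per cell. The cluster was found and named without Plvap among the genes. The remaining 6 endothelial carriers, 4 capillary-like and 2 arterial-like cells, had 1 UMI each. Outside the endothelial-like class 1 mural droplet mixed with endothelial RNA had 44 UMIs and 5 further cells had 1 each. Over all barcodes, including those below the cell filters, Plvap had 0 and 2 UMIs in PLX5622 libraries and 53 and 442 in control libraries.

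**Figure D3:**
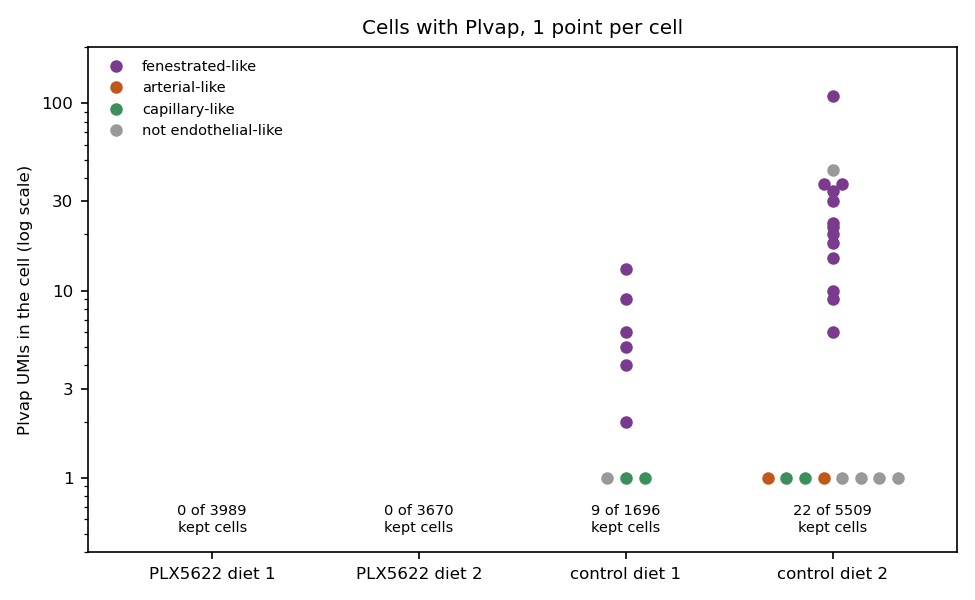
Plvap UMIs in each kept cell that carried the gene (vertical axis, log scale) by library (horizontal axis), coloured by class, with the number of carriers among the kept cells below. No PLX5622 cell carried Plvap, and the control cells with more than 1 UMI were fenestrated-like apart from 1 droplet with 44 UMIs.

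Plvap in endothelial-like cells had 10.2 CPM over both control libraries, 124-fold a floor of 3 counts over both PLX5622 libraries (0.0821 CPM). The ratio was 57.5-fold for control library 1 alone and 142-fold for control library 2 alone. It was 51.7-fold with the floor of PLX5622 library 1 alone and 72.6-fold with that of PLX5622 library 2 alone. These ratios were added after seeing the data. They treat UMIs as independent, although 1 control cell held 110 UMIs, so 1 such cell would exceed the floor. They are therefore no lower bound on the difference between the diets. The edgeR test gave an unadjusted p of 0.00884 and an adjusted p of 0.228. Over 11 alternatives the adjusted p ran from 1.27e-16 to 0.313, with DESeq2 at 7.8e-05 and library totals without TMM factors at 0.116, so whether Plvap passed depended on the tool and the setting. A two-sided exact permutation test of the share of carriers over the 4 libraries gave p = 0.3333, the smallest p that this design allows. Without the 19 fenestrated-like cells, too few Plvap counts were left for a test.

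Transthyretin (Ttr), the defining transcript of choroid plexus epithelium, was likewise lower in PLX5622 than in control libraries. Over all barcodes Ttr had 0 and 42 UMIs in PLX5622 libraries and 2345 and 59120 in control libraries, and in endothelial-like cells 0 and 0 against 17 and 2651. The summed level of all 6 choroid plexus epithelium markers over all barcodes was 1.63 and 4.30 CPM in PLX5622 and 215 and 1546 CPM in control libraries. Ttr alone made up 210 and 1532 CPM of the control sums. Folr1, Kl, Clic6 and Kcnj13 were also higher in both control libraries. Aqp1 was not, at 0.105 and 0.742 CPM in PLX5622 and 0 and 0.570 CPM in control libraries. Among control endothelial-like cells, Ttr had 33.1 CPM in the 25 Plvap carriers and 65.6 CPM in the other cells. The part of choroid plexus RNA in the Plvap result was not tested.

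The 25 endothelial-like carriers differed from the other control endothelial-like cells in further genes, described without a test because the cells were chosen by a gene. These carriers pool 19 fenestrated-like cells with 4 capillary-like and 2 arterial-like cells. The carrier levels given here are those of this mixture and not of the fenestrated-like cells alone. The 10 genes with the highest ratio were Col15a1, Fam167b, Gpihbp1, Col13a1, Rbp7, Car8, Ces2e, Hecw2, Exoc3l2 and Bmp6. Only genes found in a set minimum share of carriers and with a UMI in the other cells were ranked. Col15a1 was also among the markers that named the fenestrated-like cluster, and it had 0.0246 CPM in the other cells. Of the members, Mfsd2a stood at 52.9 CPM in carriers and 314 CPM in the other cells, and was found in 4 of the 25 carriers. Cavin3 stood at 231 CPM in carriers and 102 CPM in the other cells, and was found in 17 carriers. Cav1 and Cav2 were also lower in carriers, with 205 and 152 CPM in carriers and 315 and 261 CPM in the other cells. The barrier genes claudin-5 and Slc2a1, the glucose transporter, had 2301 and 344 CPM in carriers and 7763 and 1671 CPM in the other cells. They were found in 12 and 10 of the 25 carriers.

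The wider machinery of caveolae and transcytosis was read from the same endothelial fit. Of 16 further genes of the caveolar coat and of membrane shaping, 12 were tested and 0 passed, where edgeR called 1.1% of all genes, with a median log2 fold change of -0.13, beside 0.0026 over all 12788 genes. An unadjusted p under 0.05 was found for 4 of the 12, and for 10.6% of all genes. With no low-count filter, and without PLX5622 library 2, 1 gene of this list was called lower. It was Ehd1, an endocytic ATPase named after its values were seen, which had 24.6 ± 4.37 CPM in PLX5622 and 32.5 ± 4.08 CPM in control libraries (SD, n = 2 each; adjusted p = 0.252, edgeR). The 3 most abundant were Dnm3 and Dnm2, dynamins that cut vesicles from the membrane, and Ehd2, an ATPase at the caveolar neck. Dnm3 had 155 ± 2.09 CPM in PLX5622 and 191 ± 7.27 CPM in control libraries (SD, n = 2 each), with an adjusted p of 0.291 in edgeR. Of 12 clathrin coat genes, which form the vesicle route parallel to caveolae, 11 were tested and 0 passed, with 1 at an unadjusted p under 0.05 and a median of 0.08. Cltc, the clathrin heavy chain, had 217 ± 22.2 CPM in PLX5622 and 237 ± 34.6 CPM in control libraries (SD, n = 2 each), and Clta and Picalm were the other abundant genes.

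In each of 3 further lists 1 gene passed, where edgeR called 1.1% of the 12788 genes tested. An unadjusted p under 0.05 in edgeR was found for 10.6% of all genes. In these lists it was found for 4 of 9 resident and regulator genes, 1 of 15 traffic genes and 2 of 9 lipid genes. Of 9 tested genes for residents and regulators of caveolae, Alpl, a membrane phosphatase, fell to 105 and 126 CPM in PLX5622 libraries, against 187 and 155 CPM in control libraries (log2 fold change -0.51 ± 0.11, SE, adjusted p = 0.0257, edgeR). Alpl is also among the arterial markers that named the zones and, unlike the members, was not barred from the clustering. Its differences within zones are therefore not independent of how cells were assigned to zones. Within zones its log2 fold change was -0.24 in arterial-like cells (adjusted p = 0.730), -0.54 in capillary-like cells (adjusted p = 0.0016) and -0.97 in venous-like cells (adjusted p = 2.28e-05), all in edgeR. Without PLX5622 library 1 the capillary and venous differences did not pass (adjusted p 0.176 and 0.154, edgeR), and the venous one did not pass in DESeq2 (adjusted p = 1.00) or without mixed droplets (0.754, edgeR) either. Without PLX5622 library 1 or control library 1 the adjusted p of Alpl in endothelial-like cells was 0.383 or 0.0856.

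Of 15 genes of vesicle traffic and fusion, 15 were tested and Exoc3l2, an exocyst-related gene, was lower, with 1 and 8 UMIs in PLX5622 and 8 and 61 UMIs in control libraries (log2 fold change -2.65 ± 0.57, SE, adjusted p = 0.0282, edgeR). Of 9 tested genes of lipid handling near Mfsd2a, Gpihbp1, which anchors lipoprotein lipase to endothelium, was lower, with 0 and 5 UMIs in PLX5622 and 13 and 48 UMIs in control libraries (log2 fold change -3.37 ± 0.63, SE, adjusted p = 0.0101, edgeR). Most control UMIs of both genes lay in the cells that carry Plvap: the 19 fenestrated-like cells held 5 of the 8 and 49 of the 61 control UMIs of Exoc3l2, and 13 of the 13 and 46 of the 48 control UMIs of Gpihbp1. Without those cells neither gene had enough counts for a test. Neither passed without control library 2 (adjusted p 0.396 for Exoc3l2 and 0.123 for Gpihbp1) or in DESeq2 (0.269 and 0.0530), and Exoc3l2 also failed without PLX5622 library 1 (0.0752) and without mixed droplets (0.0735).

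**Figure D4:**
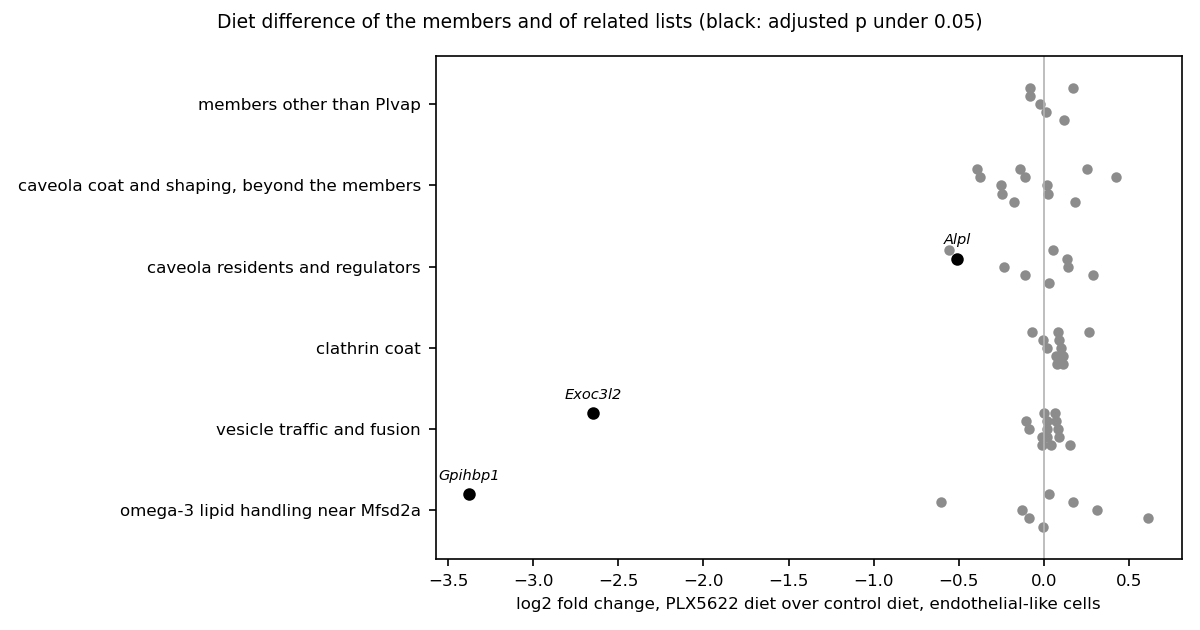
Log2 fold change of the tested genes of the members and of 5 related lists, PLX5622 diet over control diet, in endothelial-like cells (horizontal axis), by list (vertical axis), with genes past an adjusted p of 0.05 in edgeR in black and named. Plvap, whose PLX5622 libraries are at 0, is not drawn. The 6 members drawn lie between -0.08 and 0.17, and the genes in black are Alpl, Exoc3l2 and Gpihbp1, all lower in PLX5622.

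The genes most like each member were sought among 3377 genes with at least 50 CPM on average, by the correlation over the same 12 zone sums. Cav1 was closest to Ifitm2 (Pearson r = 0.93), Cp, Ifitm3, Mecom and Ecscr. Cav2 was closest to Ddah1 (0.92), Itih5, Klf10, Pigp and Dipk1a, and Cavin1 to Ro60 (0.92), with Ralb, Synpo2 and Ptprb also among its closest genes. Cavin2 was closest to Aplp2 (0.95), Golim4, Nsfl1c, St6galnac3 and Rrbp1. Cavin3 was closest to Pcmtd1 (0.96), S100a11, Mgp, Ptms and Plscr2, and Mfsd2a to Sec14l1 (0.94), Ivns1abp, Mff, Pop5 and Emcn.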

How the data were processed

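The authors deposited raw UMI counts per gene and barcode for 4 libraries, as the whole-number values show. The libraries held 567554 to 872190 barcodes each, so cell calling had not been applied. The submitters' processing notes name Cell Ranger 6.0.1, Seurat 4.0 and both mm10 and mm39 without saying which build served the counts, and the file headers name Cell Ranger 4. Gene positions come from GENCODE M21 (GRCm38) and promoters from RefSeq (GRCm38.p6). Library totals ran from 11186648 to 38600208 UMIs.

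Cells were filtered as stated and clustered (igraph 0.11.9, 2000 variable genes, 20 principal components, 15 neighbours and resolution 0.6 for endothelial cells). No doublet caller was run: 291 endothelial and 188 mural droplets with RNA of both kinds were set aside. The alternative without mixed droplets went further. It also left out endothelial-like cells with 3 or more UMIs of mural markers, and mural cells with a higher share of endothelial marker RNA. It kept 11762 of the 13522 endothelial-like cells. The thresholds that named clusters were set after seeing the clusters. A further 1014 endothelial-like cells of low depth belong to no zone.

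Counts were summed per library and class and tested with edgeR 4.0.16 (R 4.3.3; quasi-likelihood test, TMM, default low-count filter, Benjamini-Hochberg adjustment over all genes tested, threshold 0.05, two-sided). A class needed at least 20 cells in each library. DESeq2 1.42.0, other filters and scalings, and each library left out were alternatives. On simulated counts the fit recovered 56% of 1.5-fold and 83.8% of 2-fold changes in endothelial-like cells. For 1.5-fold changes this was 37.1% in arterial-like, 54.5% in capillary-like, 31% in venous-like and 10.5% in smooth muscle-like cells. False calls made up 8.55% of the simulated calls in endothelial-like, 10.7% in arterial-like, 11% in capillary-like, 6.09% in venous-like and 0% in smooth muscle-like cells. All members were named. Of each related list, the genes past the threshold were named, or else the 3 most abundant. Some items that these rules name are not reported here. The members and lists were chosen with earlier results of these data known.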

Additional observations from a re-analysis of the deposited data

How the results depend on the processing

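The number of members called by diet in endothelial-like cells was 0 and became 1, Plvap in each case, with DESeq2, with no low-count filter, with the replicate block, without mixed droplets, and in each of the 4 fits that leave out a library (lowest 1, highest 1). It stayed 0 with library totals, at most 5% mitochondrial UMIs, or mixed endothelial droplets added, the last chosen after seeing the data. Deviations of same-numbered libraries from their diet mean had a correlation of 0.08 over 12788 genes. With 2 libraries per diet both pairs give this same value, so it cannot settle whether they were processed together. The block rests on the replicate numbers of the labels, and it raised the calls over all genes in endothelial-like cells to 244, beside 141. These calls numbered 347 with no low-count filter and between 113 and 210 with a library left out, and library totals gave 105 higher and 87 lower calls, beside 94 higher and 47 lower.

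Small diet differences changed sign in endothelial-like cells. Cavin3 came to -0.029 with library totals. With a library left out, log2 fold changes ran from -0.0991 to 0.0579 for Cav2, -0.1962 to 0.0171 for Cavin1, -0.1658 to 0.0005 for Cavin2, -0.1528 to 0.2178 for Cavin3 and -0.0795 to 0.2928 for Mfsd2a. Zones assigned from marker scores gave a venous over capillary log2 ratio of -0.0093 for Cavin2, and a limit of 5% mitochondrial UMIs gave a smooth muscle over endothelial ratio of 0.0299 for Cav1. The zone with the highest mean was kept for each of the 6 members other than Plvap in the 3 alternatives for zones. With marker scores, though, library ranges that were apart overlapped for Cavin1 and Cav2 (venous and capillary), Cavin2 (arterial and capillary) and Mfsd2a (venous and arterial), and Cavin3 in venous-like cells lay clear of capillary-like cells, at a log2 ratio of 0.56 beside 0.15. Of 22 diet differences of members in zones and smooth muscle-like cells 10 changed sign under at least 1 alternative, as did 5 of 12 terms for a diet difference between zones, and none was called under any. Plvap carriers numbered 19 with at least 2 UMIs, beside 25. Diet tests in pericyte-like cells, and in smooth muscle-like cells at 5% mitochondrial UMIs, were not run because too few cells were left. The limit on Plvap carriers in PLX5622 libraries is set by the number of cells.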
